A study of Mus musculus with 11 samples.

Results

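The 10 genes described here belong to the JAK-STAT5 pathway and its SOCS feedback and were followed in sorted microglia from aged mice. They are the kinase Jak2, the transcription factors Stat5a and Stat5b, the feedback inhibitors Cish, Socs1, Socs2 and Socs3, and the targets Pim1, Bcl2l1 and Bhlhe40. They were chosen by name for their place downstream of GM-CSF, and all 10 were found among the 14739 genes of the deposited table and passed the filter on low values. RNA from Tmem119+ cells of the cerebrum of C57BL/6 mice was sequenced in bulk. The 11 libraries were 3 from Csf1r+/- mice (Csf1r_het), 3 from Csf2+/- mice (Csf2het), 2 from Csf1r+/-; Csf2+/- mice (Dhet) and 3 from wild-type mice (WT). The mice were 21 months old, apart from Csf1r_het replicate 1 at 20 months and Csf1r_het replicate 2 and Dhet replicate 2 at 24 months. The labels name no Cre driver or cell-type promoter for either allele. The labels do not say whether the replicates are separate animals, so p-values measure only the spread between these samples, which may be technical.

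GM-CSF, the product of Csf2, binds a receptor made of a specific chain (Csf2ra) and a shared beta chain (Csf2rb), which carries the kinase JAK2. JAK2 phosphorylates the receptor and then STAT5A and STAT5B, which move to the nucleus and bind the sequence TTCNNNGAA near their target genes. Several of those targets, the CIS and SOCS proteins, bind the receptor or the kinase and shut the signal down, so that their mRNAs are often read as a gauge of recent cytokine signalling. CSF-1 signals through CSF1R, a receptor with its own tyrosine kinase domain, and microglia depend on it for survival.

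Values below are normalized counts, that is, gene counts scaled by the authors with 1 size factor per library. The libraries held 21037819 to 53081638 reads assigned to genes. Haemoglobin genes took 16.1% to 58.8% of them, with the highest share in Csf1r_het replicate 2, where 15.6% of genes were at 0 (elsewhere 4.98% to 9.88%). Csf1r had 17017 to 40567 normalized counts in Csf1r_het and 30254 to 40151 in Dhet, against 53873 to 66762 in Csf2het and 41261 to 93319 in WT. Dhet replicate 2 had 4.02 normalized counts of Xist and 717.0 of Ddx3y, against at least 3011 and at most 16.3 in the other libraries. That library was also from 24 months, so comparisons with Dhet mix genotype with this difference and with age. All 12 microglia markers were in the table, and their summed level was 325364 to 383159 in Csf1r_het, 479643 to 620652 in Csf2het, 405245 to 506986 in Dhet and 147496 to 325110 in WT. In bulk RNA, fewer cells of a type and less RNA per cell cannot be told apart.

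Jak2 was lower in every heterozygous library than in any WT library, although no single comparison passed the test. Jak2 (ENSMUSG00000024789.12) maps in mm10 to the forward strand of chromosome 19, 29251828 to 29313080. Its normalized counts were 322.1, 506.8 and 582.2 in Csf1r_het, 381.8, 319.8 and 291.6 in Csf2het and 334.9 and 416.9 in Dhet, against 948.5, 859.9 and 796.3 in WT. The highest of the 8 heterozygous libraries, Csf1r_het replicate 3, was still below the lowest WT library. Its level averaged 470.4 ± 133.8 in Csf1r_het, 331.1 ± 46.1 in Csf2het and 375.9 ± 58.0 in Dhet, against 868.2 ± 76.4 in WT (SD, n = 3, 3, 2 and 3). The log2 fold change against WT was -0.92 (SE 0.37, limma adjusted p = 0.240) in Csf1r_het, -1.39 (SE 0.37, limma adjusted p = 0.0551) in Csf2het and -1.21 (SE 0.41, limma adjusted p = 0.329) in Dhet. None of the 3 passed the threshold of 0.05 after adjustment over the 13223 genes tested. The 3 comparisons share the WT libraries, so they are not independent of each other.

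**Figure D1:**
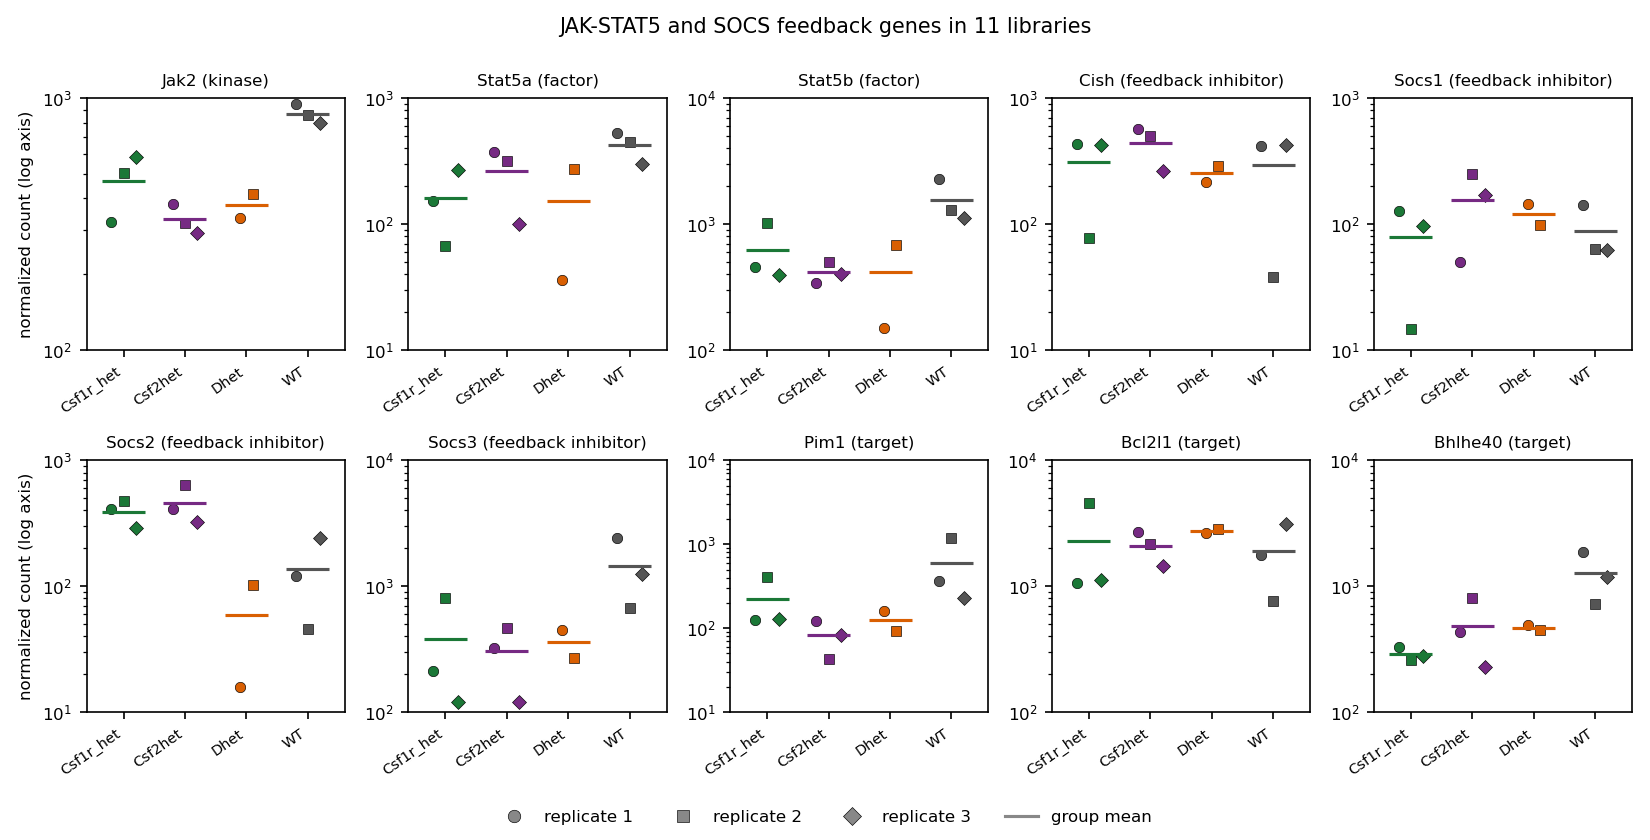
Normalized counts of the 10 genes (log axis) in Csf1r_het, Csf2het, Dhet and WT libraries. Points are libraries, with the shape giving the replicate, and bars are group means. Jak2 and Stat5b show all 8 heterozygous libraries under the 3 WT libraries, while the Socs2 values of both single heterozygotes lie above those of Dhet and WT.

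Stat5b and Stat5a encode the closely related factors that JAK2 phosphorylates, and they sit head to head on chromosome 11 with 8626 bases between them. Stat5b (ENSMUSG00000020919.11, 100780731 to 100850724, reverse strand) had 456.7, 1020.9 and 391.7 normalized counts in Csf1r_het, 339.0, 498.0 and 401.9 in Csf2het and 148.7 and 685.9 in Dhet, against 2272.0, 1290.8 and 1126.8 in WT. As with Jak2, the 8 heterozygous libraries did not overlap the WT libraries. The log2 fold changes were -1.39 in Csf1r_het (SE 0.56, limma adjusted p = 0.243), -1.87 in Csf2het (SE 0.56, limma adjusted p = 0.0887) and -2.22 in Dhet (SE 0.62, limma adjusted p = 0.214). The Dhet value rests largely on replicate 1: without it the log2 fold change was -1.12, and without replicate 2 it was -3.32 and passed (limma adjusted p = 0.0273), with the lone Dhet library assumed to vary like the other groups.

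Stat5a (ENSMUSG00000004043.14, 100859351 to 100885169, forward strand) was more scattered. It had 151.8, 66.7 and 267.4 normalized counts in Csf1r_het, 375.5, 318.4 and 100.8 in Csf2het and 36.0 and 272.0 in Dhet, against 533.6, 445.5 and 301.8 in WT. All Csf1r_het and Dhet libraries lay below WT, whereas 1 of 3 Csf2het libraries did. The log2 fold changes of -1.57, -0.85 and -2.05 in Csf1r_het, Csf2het and Dhet did not pass (limma adjusted p = 0.354, 0.654 and 0.474), and the Dhet value was -0.61 without Dhet replicate 1. Of the distinct 31-base words in the annotated transcripts, 11.5% of those of Stat5a also occur in Stat5b and 15.1% of those of Stat5b in Stat5a, so that the split of reads between both genes is uncertain in part. Their sum is not affected by that split, and it was 608.6, 1087.6 and 659.1 in Csf1r_het, 714.5, 816.4 and 502.8 in Csf2het and 184.7 and 957.9 in Dhet, against 2805.6, 1736.3 and 1428.6 in WT. The summed STAT5 level was thus below WT in all 8 heterozygous libraries. Among all genes tested, 4.74% had all 8 heterozygous libraries below all 3 WT libraries, compared with 2 of the 10 members, and 2.07% had all 8 above, compared with 0 of the 10.

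The log2 fold changes of the feedback inhibitors differed in sign, and none passed against WT in limma. Socs3 (ENSMUSG00000053113.3, chromosome 11, 117966079 to 117970047, reverse strand) encodes an inhibitor that binds JAK kinases and gp130-type receptors. It had 213.9, 800.1 and 121.1 normalized counts in Csf1r_het, 321.3, 469.2 and 119.9 in Csf2het and 451.3 and 266.8 in Dhet, against 2414.5, 666.8 and 1255.3 in WT. Of the 8 heterozygous libraries 7 were below WT, the exception being Csf1r_het replicate 2. The log2 fold changes of -2.20 (SE 0.72) in Csf1r_het, -2.26 (SE 0.72) in Csf2het and -1.86 (SE 0.81) in Dhet did not pass (limma adjusted p = 0.166, 0.113 and 0.469). The Csf1r_het value was -2.97 without Csf1r_het replicate 2 (limma adjusted p = 0.0687) and -1.61 without Csf1r_het replicate 3 (limma adjusted p = 0.342), and the Csf2het value passed in 1 of 11 fits that left out a library.

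Cish (ENSMUSG00000032578.7, chromosome 9, 107296026 to 107302784, forward strand) encodes CIS, which competes with STAT5 for docking sites on the receptor and is a classical STAT5 target. It had 434.3, 77.0 and 425.3 normalized counts in Csf1r_het, 572.6, 497.5 and 263.0 in Csf2het and 216.3 and 289.8 in Dhet, against 414.8, 37.9 and 426.9 in WT. Csf2het replicates 1 and 2 and Csf1r_het replicate 1 were above all WT libraries and the others within the WT range, and the lowest values came from WT replicate 2 and Csf1r_het replicate 2. Its log2 fold changes were 0.36 (SE 0.91) in Csf1r_het, 1.15 (SE 0.91) in Csf2het and 0.40 (SE 1.01) in Dhet, none of which passed (limma adjusted p = 0.883, 0.575 and 0.925). Without WT replicate 2 they were -0.79 in Csf1r_het, 0.0028 in Csf2het and -0.75 in Dhet. No direction can be given for Cish. Of its 31-base words, 10.4% also occur in transcripts of other genes (6.54% in Gm17041), which makes part of its count uncertain.

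Cish and Socs3 are shown with their start-site sequences because they were the members whose start-site windows held the STAT5 consensus. The windows are those of RefSeq on GRCm38.p6, 250 bases before to 50 after each gene start, and 8 of the 10 members had 13 of them. The letters TTCNNNGAA, which read the same on both strands, occurred in 2 of the 13, against 8.3% of all 32851 windows. The Cish stretch is at chr9:107296649-107296678 on the forward strand and holds 2 matches, as 0.457% of all windows do. Its matches begin at bases 1 and 12 after the RefSeq start, and the stretch lies inside the Cish gene interval given above. The Socs3 stretch is at chr11:117969451-117969550 on the reverse strand, inside the Socs3 gene interval given above, and its match begins 154 bases before the RefSeq start. Both are written 5′ to 3′, with each match in capitals.
Cish: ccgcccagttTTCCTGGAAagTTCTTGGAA
Socs3: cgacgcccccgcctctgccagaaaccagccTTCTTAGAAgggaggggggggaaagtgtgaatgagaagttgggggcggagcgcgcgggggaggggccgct
The gene with the doubled match, Cish, had overlapping groups, while Socs3, with a single match, had most heterozygous libraries below WT. A match of letters is not evidence of binding, and binding was not measured in these samples.

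Among the members, Socs2 had the largest difference between the single heterozygotes and Dhet. Socs2 (ENSMUSG00000020027.18, chromosome 10, 95385362 to 95417180, reverse strand) encodes an inhibitor best known for limiting growth hormone signalling through STAT5B. It had 411.9, 475.6 and 289.5 normalized counts in Csf1r_het, 408.9, 632.0 and 324.3 in Csf2het and 15.8 and 101.8 in Dhet, against 120.1, 45.6 and 243.3 in WT. All 6 single-heterozygote libraries lay above all Dhet and WT libraries, a pattern that 1.77% of the genes tested had. The Dhet and WT libraries overlapped. Of the 31-base words of Socs2, 6.55% also occur in transcripts of other genes (4.99% in Gm9847), which makes part of its count uncertain.

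The interaction, which asks whether losing a Csf2 copy acted differently on Csf1r+/- and on Csf1r+/+ mice, was -5.19 for Socs2 on the log2 scale (SE 1.14, 95% interval -7.66 to -2.73, limma adjusted p = 0.0384). Socs2 was the 1 member of 10 called for the interaction, against 1.85% of all genes tested. DESeq2 also called it, among 7.36% of all genes, and edgeR called 0 members and 1.47% of all genes (log2 -4.58, edgeR adjusted p = 0.0667 for Socs2). It was called in 3 of the 11 fits that left out a library, with limma adjusted p from 0.0194 to 0.146, and the interaction stayed negative in all 11 (-6.50 to -3.89). Both extremes came from Dhet: -3.89 without replicate 1 and -6.50 without replicate 2.

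No single step of the Socs2 pattern passed. The log2 fold change was 1.79 in Csf1r_het (SE 0.76, limma adjusted p = 0.266), 1.98 in Csf2het (SE 0.76, limma adjusted p = 0.191) and -1.42 in Dhet (SE 0.85, limma adjusted p = 0.591) against WT. For Dhet against Csf1r_het it was -3.21 (SE 0.85, limma adjusted p = 0.382), and for Dhet against Csf2het -3.40 (SE 0.85, limma adjusted p = 0.279). Without Dhet replicate 2, the library that differed in Xist and Ddx3y, these were -4.52 and -4.71 and both passed (limma adjusted p = 0.0421 and 0.0446). Without Dhet replicate 1 they were -1.91 and -2.09 and did not pass (limma adjusted p = 0.797 and 0.873). The value of Dhet against WT was -0.12 without Dhet replicate 1 and -2.73 without replicate 2, and each of these fits had a lone Dhet library.

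Markers of other cells were split between the groups as Socs2 was. All 6 choroid plexus markers were in the table and none was at 0 in any library, and their sum was 903897 to 1599502 in Csf1r_het, 932046 to 1217923 in Csf2het, 286393 to 643017 in Dhet and 437962 to 697646 in WT. It was higher in all 6 single-heterozygote libraries than in all Dhet and WT libraries, as for Socs2. Within groups the order of this sum mostly differed from that of Socs2. WT replicate 2 had the highest choroid plexus sum of the WT libraries (697646) and the lowest Socs2 (45.6). In Csf1r_het and in Csf2het, replicate 2 had the lowest sum and the highest Socs2, whereas in Dhet both were lower in replicate 1. Ttr alone gave 627562.3 of the sum in WT replicate 2. Another of these markers, Kcnj13, was lowest of the WT libraries in replicate 2 (1443.2) and highest in replicate 3 (9993.4), as was Socs2. Kcnj13 also had the order of Socs2 in Csf2het and in Dhet, but not in Csf1r_het. Its groups overlapped, with 9519.9 in Csf2het replicate 3 and 11032.5 in Dhet replicate 2. The median log2 interaction over the 6 choroid plexus markers was -2.27, against 0.15 over all genes tested, and 1 of the 6 was called, as lower. Of 8 border macrophage markers 4 were in the table (Mrc1, Cd163, Lyve1 and Cd209f were not), and their sum was 642.2 to 1052.0 in Csf1r_het, 573.6 to 683.2 in Csf2het, 120.9 to 240.3 in Dhet and 285.1 to 494.0 in WT. The part of either in the Socs2 values was not tested.

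**Figure D2:**
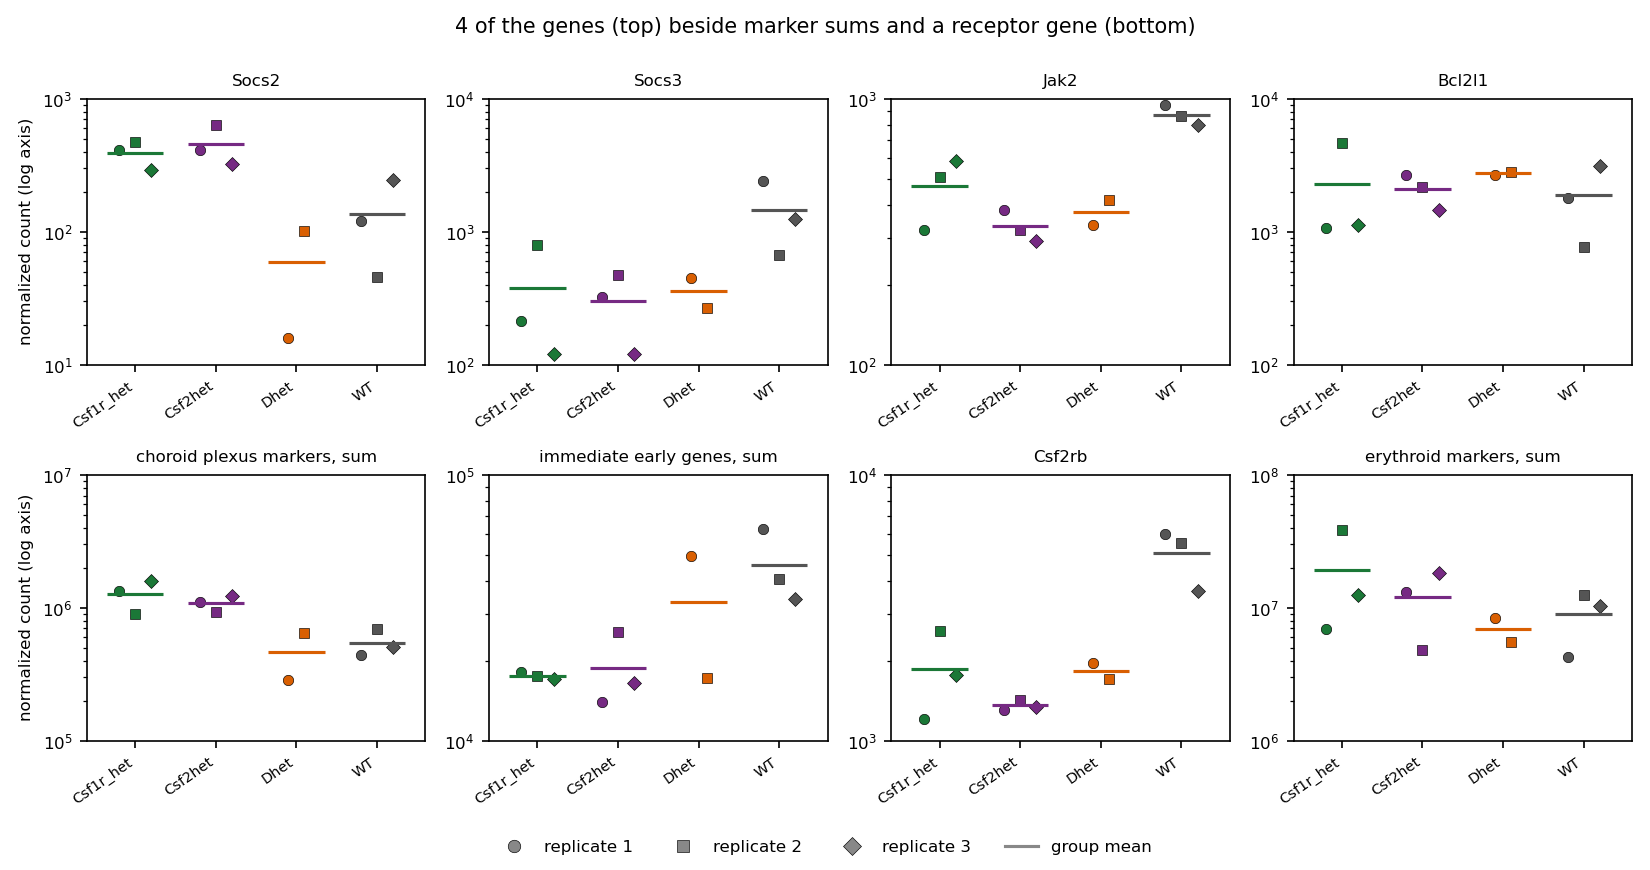
Normalized counts (log axes) of Socs2, Socs3, Jak2 and Bcl2l1 (top row) and of the choroid plexus markers summed, the immediate early genes summed, Csf2rb and the erythroid markers summed (bottom row). Points are libraries and bars are group means. Socs2 and the choroid plexus sum were both higher in the 6 single-heterozygote libraries than in Dhet and WT.

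Socs1 (ENSMUSG00000038037.4, chromosome 16, 10783808 to 10785536, reverse strand) encodes a direct inhibitor of JAK kinases that is strongly induced by interferons. It was the member with the fewest reads, 10 to 522 per library. It had 127, 14.8 and 95.8 normalized counts in Csf1r_het, 50.1, 249.9 and 170.3 in Csf2het and 144.2 and 97.7 in Dhet, against 141.9, 63.1 and 62.0 in WT. The 4 groups overlapped, and its log2 fold changes of -0.52, 0.64 and 0.52 in Csf1r_het, Csf2het and Dhet did not pass (SE 0.92, 0.92 and 1.03, limma adjusted p = 0.823, 0.793 and 0.896).

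Among the targets, Pim1 and Bhlhe40 were low in most heterozygous libraries and Bcl2l1 was not. Pim1 (ENSMUSG00000024014.7, chromosome 17, 29490812 to 29496111, forward strand) encodes a serine/threonine kinase that promotes survival downstream of STAT5. It had 124.1, 407.5 and 129.5 normalized counts in Csf1r_het, 122.0, 42.6 and 83.1 in Csf2het and 158.4 and 93.2 in Dhet, against 362.2, 1182.1 and 231.8 in WT. Every Csf2het and Dhet library lay below every WT library, and Csf1r_het replicate 2 was above 2 of the 3. The log2 fold change was -1.30 (SE 0.74) in Csf1r_het, -2.60 (SE 0.74) in Csf2het and -1.92 (SE 0.83) in Dhet, none of which passed (limma adjusted p = 0.410, 0.0767 and 0.468). Leaving out WT replicate 2, the highest library, gave -0.63, -1.92 and -1.25. The predicted gene Gm26885 shares 11.1% of the 31-base words of Pim1, which makes part of its count uncertain.

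Bhlhe40 (ENSMUSG00000030103.11, chromosome 6, 108660629 to 108666925, forward strand) encodes a transcriptional repressor that GM-CSF and other cytokines induce in myeloid and T cells. It had 327.4, 259.3 and 276.9 normalized counts in Csf1r_het, 430.8, 800.1 and 230.3 in Csf2het and 489.6 and 446.2 in Dhet, against 1888.6, 721.1 and 1183.0 in WT. The Csf1r_het libraries were closely grouped, at 287.9 ± 35.3 against 1264.3 ± 588.0 in WT (SD, n = 3 each), and of the 8 heterozygous libraries only Csf2het replicate 2 overlapped WT. The log2 fold changes were -2.03 (SE 0.49, limma adjusted p = 0.0595) in Csf1r_het, -1.45 (SE 0.49, limma adjusted p = 0.130) in Csf2het and -1.32 (SE 0.54, limma adjusted p = 0.446) in Dhet. The Csf1r_het value passed in 1 of 11 fits that left out a library: it was -2.38 without WT replicate 2 (limma adjusted p = 0.0280) and -1.69 without WT replicate 1 (limma adjusted p = 0.277).

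Bcl2l1 (ENSMUSG00000007659.18, chromosome 2, 152780668 to 152831728, reverse strand) encodes the anti-apoptotic protein BCL-XL, which erythroid cells also express strongly. It had 1066.6, 4621.5 and 1128.6 normalized counts in Csf1r_het, 2695.3, 2158.9 and 1457.9 in Csf2het and 2662.0 and 2828.9 in Dhet, against 1784.6, 767.7 and 3130.3 in WT. The groups overlapped, with log2 fold changes of 0.13, 0.33 and 0.76 in Csf1r_het, Csf2het and Dhet (SE 0.58, 0.58 and 0.64, limma adjusted p = 0.938, 0.838 and 0.713). All 8 erythroid markers were in the table, with a summed level of 6914973 to 38520196 in Csf1r_het, 4828818 to 18355650 in Csf2het, 5488673 to 8322979 in Dhet and 4225538 to 12530768 in WT. Csf1r_het replicate 2 was the highest library both for this sum and for Bcl2l1. WT replicate 2, the lowest for Bcl2l1, had the highest sum among the WT libraries. For the erythroid markers Alas2 and Slc4a1, however, WT replicate 2 was the lowest WT library (11749.6 and 952.1), as for Bcl2l1. WT replicate 3 was the highest WT library for both (133529.5 and 2663.3), also as for Bcl2l1. The part of these markers in the Bcl2l1 values was not tested.

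**Figure D3:**
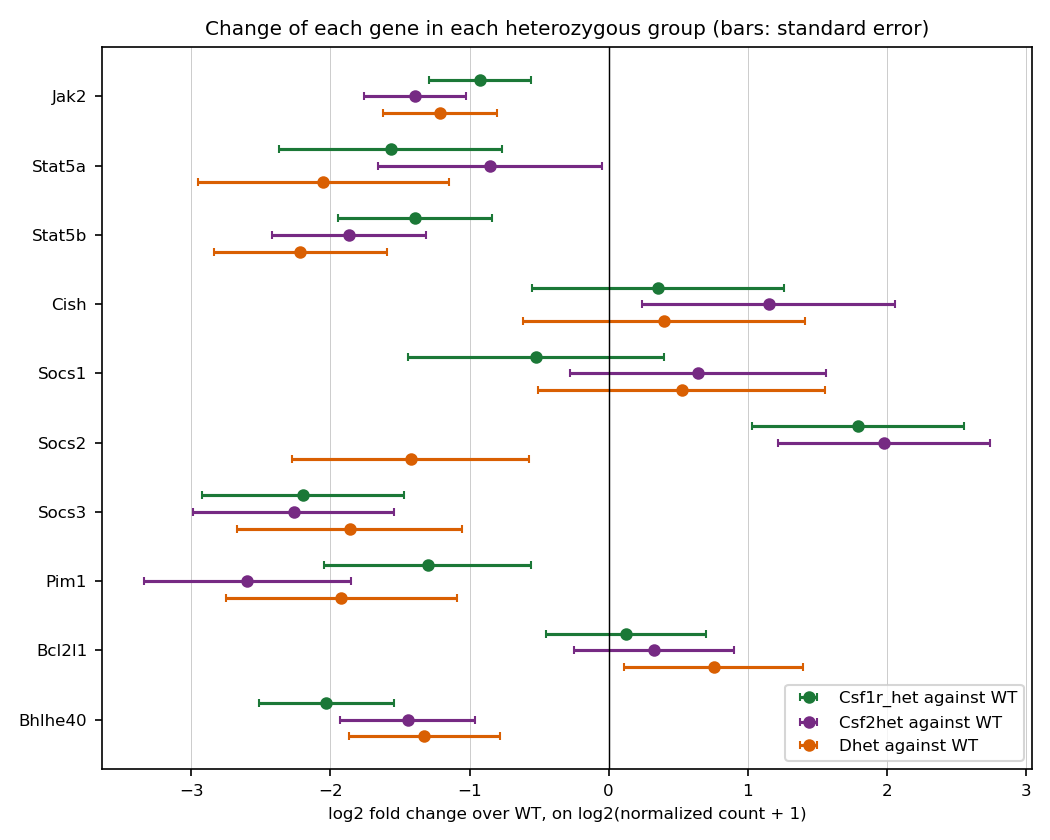
Log2 fold change over WT of each gene in Csf1r_het, Csf2het and Dhet, on the scale of log2(normalized count + 1), with bars of 1 standard error. Jak2, Stat5a, Stat5b, Socs3, Pim1 and Bhlhe40 lie below 0 in each heterozygous group, and Socs2 lies above 0 in both single heterozygotes and below 0 in Dhet, where the value was -0.12 without Dhet replicate 1.

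Set beside all genes tested, limma called 0 of the 10 members in Csf1r_het against WT (1.32% of all genes), 0 in Csf2het (3.65%) and 0 in Dhet (0.529%). At these percentages fewer than 1 of 10 genes would be called, so the absence of calls says little about the members. At an unadjusted p under 0.05 there were 5 of 10 members in Csf1r_het, 6 in Csf2het and 6 in Dhet, against 16.2%, 17.3% and 10.1% of all genes. Of these, 4, 5 and 6 were below WT, against 9.83%, 10.6% and 6.2% of all genes. In both Csf1r_het and Csf2het the 1 member above WT at that level was Socs2. The members were chosen with earlier results of these data known, so these shares are not independent support.

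EdgeR called 0 members in each of the 3 comparisons, against 0.73% of all genes in Csf1r_het, 3.34% in Csf2het and 0.19% in Dhet. DESeq2 called Bhlhe40 in Csf1r_het (6.42% of all genes), Jak2, Stat5b, Socs3 and Pim1 in Csf2het (9% of all genes) and Jak2 in Dhet (2.66% of all genes).

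The median log2 fold change of the 10 was -1.11 in Csf1r_het, -1.12 in Csf2het and -1.37 in Dhet, against -0.12, -0.02 and 0.02 over all genes. These medians mix roles: the kinase and both factors were below 0 in all 3 comparisons, as were Socs3, Pim1 and Bhlhe40, whereas the remaining 4 were not. All Csf1r_het libraries lay below all WT libraries for 4 members (Jak2, Stat5a, Stat5b and Bhlhe40), as for 12.8% of all genes. All Csf2het libraries did so for 4 (Jak2, Stat5b, Socs3 and Pim1), as for 14.3%, and both Dhet libraries for 6 (Jak2, Stat5a, Stat5b, Socs3, Pim1 and Bhlhe40), as for 12.6%.

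Between Dhet and the single heterozygotes, Socs2 was the 1 member of 10 with an unadjusted p under 0.05, near the share of all genes. For Dhet against Csf1r_het limma called 0 members and 0.00756% of all genes, edgeR 0 and 0.0146%, and DESeq2 1 and 0.84%, while 1 member and 10.5% of all genes had an unadjusted p under 0.05. For Dhet against Csf2het limma called 0 members and 0.0227% of all genes, edgeR 0 and 0.0219%, and DESeq2 1 and 1.37%, while 1 member and 8.19% of all genes had an unadjusted p under 0.05. The member that DESeq2 called was Socs2 in both. The median over the 10 was -0.12 and 0.0010 on the log2 scale. The 95% intervals of the differences were wide, however, for example -2.43 to 1.46 for Stat5a and -1.41 to 2.08 for Socs3 between Dhet and Csf1r_het. Both Dhet libraries lay below all 6 single-heterozygote libraries for Socs2 alone among the 10, as for 7.24% of all genes.

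Averaged over Csf1r genotypes, loss of a Csf2 copy gave log2 changes of -0.84 for Jak2 (SE 0.27, limma adjusted p = 0.306), -1.35 for Stat5b (SE 0.42, limma adjusted p = 0.273) and -1.61 for Pim1 (SE 0.56, limma adjusted p = 0.338). These were the 3 members with an unadjusted p under 0.05, as 10.1% of all genes had. Limma called 0 members and 0.718% of all genes, edgeR 0 and 0.511%, and DESeq2 called Jak2 and Pim1 and 2.63% of all genes. For the interaction, Bhlhe40 (2.15, SE 0.73, limma adjusted p = 0.145) and Socs3 (2.60, SE 1.08, limma adjusted p = 0.230) were above 0 with an unadjusted p under 0.05 and did not pass. With Socs2 they were 3 of 10 members at that level, against 18% of all genes.

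Upstream of the members, 4 of 5 genes of the GM-CSF receptor family were in the table (Il5ra was not). They were Csf2ra and Csf2rb, which encode the GM-CSF receptor itself, and the related Csf2rb2 and Il3ra. All 4 had a log2 fold change below 0 in each comparison with WT. For Csf2rb2 it was -0.40 in Csf1r_het, -0.72 in Csf2het and -0.35 in Dhet. Its Dhet libraries had 1483.8 and 288.6 normalized counts, on either side of the WT range of 766.5 to 899.7. Csf2rb fell in Csf1r_het and in Csf2het, Csf2ra fell in Csf2het, and 0 of the 4 passed in Dhet in limma. Csf2rb, the chain that carries JAK2, had 1202.6, 2594.5 and 1764.5 normalized counts in Csf1r_het, 1305.9, 1424.9 and 1338.0 in Csf2het and 1956.9 and 1701.3 in Dhet, against 5994.6, 5545.8 and 3669.6 in WT. Its heterozygous and WT libraries did not overlap, as for Jak2, and it was among the 3 genes most like Jak2 over the 11 libraries (Pearson r = 0.922), a value that partly reflects the group means (r = 0.562 for deviations from them). The call of Csf2rb in Csf2het held in 11 of 11 fits that left out a library, and that in Csf1r_het in 3 of 11, with a limma adjusted p from 0.0405 to 0.200. The Csf2ra call in Csf2het held in 8 of 11.

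The wider pathway was read from 3 further lists with 35 genes in the table: the other JAK and STAT genes (8), other SOCS genes, phosphatases and PIAS proteins (13) and other STAT5 targets (14). Socs4, Socs7, Il2ra and Lif were not in the table. In limma, 3 of the 35 fell and 0 rose in Csf1r_het, 6 fell and 0 rose in Csf2het, and 2 fell and 0 rose in Dhet, against calls for 1.32%, 3.65% and 0.529% of all genes. All 8 other JAK and STAT genes were below 0 in each comparison. Their median on the log2 scale was -1.11 for Csf1r_het, -1.40 for Csf2het and -0.77 for Dhet, against -0.12, -0.02 and 0.02 over all genes. Of the 13 inhibitors 11, 11 and 9 were below 0, with medians of -0.47, -0.59 and -0.36. Of the 14 other STAT5 targets 6, 8 and 8 were below 0, with medians of 0.09, -0.37 and -0.20.

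Stat3, the factor through which IL-6-type cytokines act, fell in Csf1r_het (log2 fold change -1.94, SE 0.32, limma adjusted p = 0.0178) and in Csf2het (-1.60, SE 0.32, limma adjusted p = 0.0155). Its normalized counts were 1223.7, 806.1 and 839.1 in Csf1r_het, 1110.9, 1107.9 and 1353.0 in Csf2het and 2059.0 and 1445.5 in Dhet, against 5213.7, 3025.2 and 2949.0 in WT. No heterozygous library overlapped WT, although the Dhet value of -1.06 did not pass (limma adjusted p = 0.327). Each of the 2 calls of Stat3 held in 8 of 11 fits that left out a library.

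Ptpn1 and Ptpn6 encode PTP1B and SHP-1, phosphatases that dephosphorylate JAK kinases and cytokine receptors. Ptpn1 had 3244.7, 2527.8 and 2599.4 normalized counts in Csf1r_het, 2454.4, 2979.1 and 2494.8 in Csf2het and 3762.0 and 2601.2 in Dhet, against 9636.3, 9852.2 and 7176.3 in WT. It fell in Csf1r_het (log2 fold change -1.67, SE 0.27, limma adjusted p = 0.0168), in Csf2het (-1.74, SE 0.27, limma adjusted p = 0.00371) and in Dhet (-1.49, SE 0.30, limma adjusted p = 0.04998), and the Dhet call held in 1 of 11 fits that left out a library. Ptpn6 had 4455.2, 3486.5 and 3385.9 in Csf1r_het, 3622.6, 3442.1 and 3865.5 in Csf2het and 5088.1 and 6619.6 in Dhet, against 14813.4, 9401.8 and 10897.6 in WT. It fell in Csf1r_het (-1.62, SE 0.27, limma adjusted p = 0.0191) and in Csf2het (-1.66, SE 0.27, limma adjusted p = 0.00501), and its Dhet value of -0.99 did not pass (SE 0.30, limma adjusted p = 0.268). In both genes the 8 heterozygous libraries lay below the 3 WT libraries, and their Csf2het calls held in 11 of 11 fits that left out a library and their Csf1r_het calls in 7 of 11.

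The other called genes of these lists were Ptprc, which encodes the CD45 phosphatase (log2 fold change -1.67 in Csf2het, limma adjusted p = 0.0157), the anti-apoptotic gene Mcl1 (-1.39 in Csf2het, limma adjusted p = 0.0360) and the repressor Bcl6 (-1.83 in Csf2het, limma adjusted p = 0.0337, and -2.38 in Dhet, limma adjusted p = 0.04998). The Ptprc call held in 8 of 11 fits that left out a library, the Mcl1 call and the Bcl6 call in Csf2het in 4 of 11, and the Bcl6 call in Dhet in 2 of 11.

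Markers of monocytes and of activation moved with these groups. All 12 monocyte markers were in the table, and their summed level was 59136 to 74805 in Csf1r_het, 17723 to 25118 in Csf2het and 71635 to 81613 in Dhet, against 97588 to 221913 in WT. Limma called 2, 12 and 3 of the 12 as lower in Csf1r_het, Csf2het and Dhet, and none was at 0 in all libraries of a group. Of 18 immediate early genes 17 were in the table (Fosb was not), with a summed level of 17063 to 18146 in Csf1r_het, 13987 to 25705 in Csf2het and 17255 to 49376 in Dhet, against 34110 to 62522 in WT. Limma called 2, 4 and 1 of the 17 as lower. The immediate early sum was 49376 in Dhet replicate 1, within the WT range, and 17255 in Dhet replicate 2. The 10 neutrophil markers summed to 26645 to 444948 in Csf1r_het, 112707 to 194589 in Csf2het and 670041 to 736955 in Dhet, against 47147 to 792053 in WT. The part of these lists in the members' values was not tested.

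**Figure D4:**
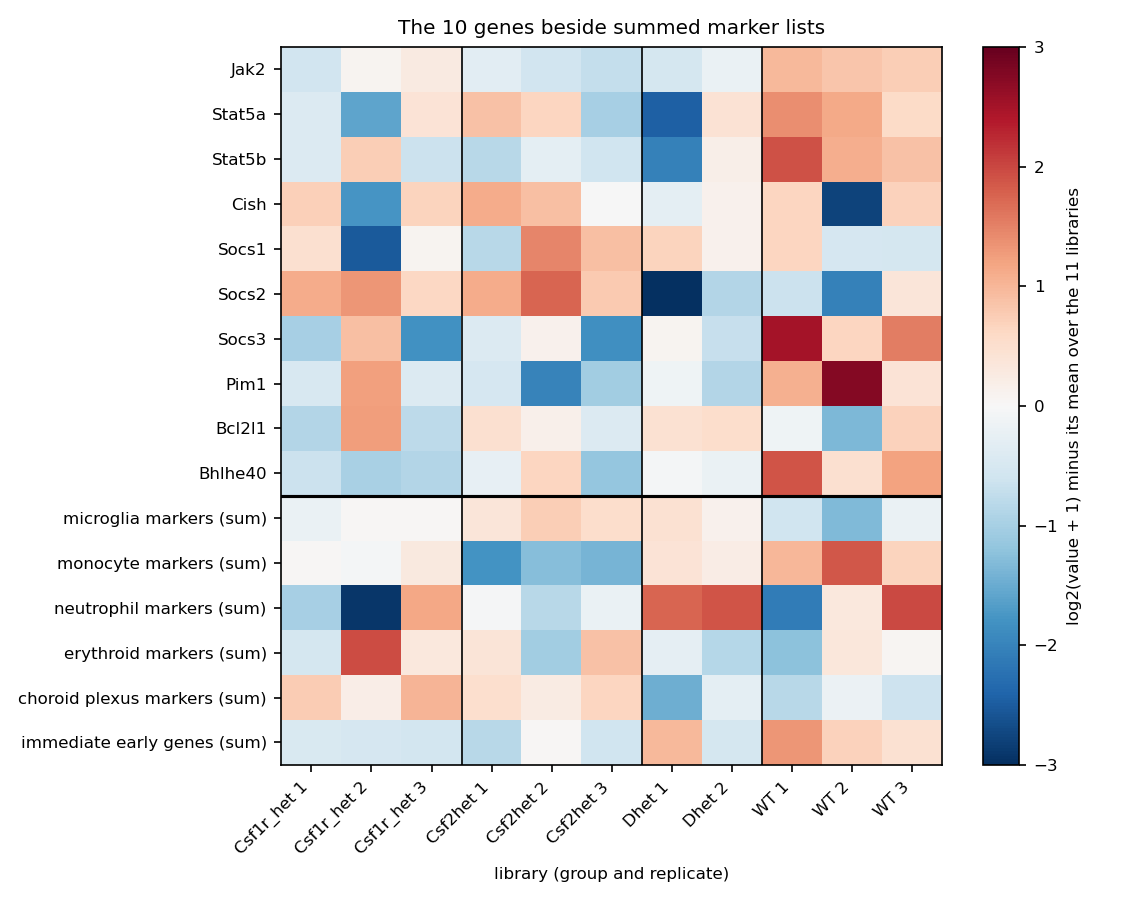
Deviation of each library from the mean over the 11 libraries, on the scale of log2(value + 1), for the 10 genes (above the thick line) and for 6 summed marker lists (below it). Jak2, Stat5b, Socs3 and the summed monocyte markers are above their mean in all 3 WT libraries, while the microglia sum is below its mean there.

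The members did not move as a single block over the 11 libraries. Socs3 and Bhlhe40 had a Pearson r of 0.824, Jak2 and Stat5b 0.796 and Jak2 and Pim1 0.769, on log2 values. Within groups, for deviations from the group means, these were 0.626, 0.331 and 0.201. Cish and Pim1 ran opposite to each other (r = -0.751, and -0.847 within groups), with WT replicate 2 the lowest library for Cish and the highest for Pim1. The genes share depth and library in these values, which describe 11 libraries and carry no test.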

How the data were processed

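The deposited table of bulk RNA-seq of Tmem119+ microglia holds a signal made by the authors, counts per gene scaled by size factors. The tools were kallisto 0.43.1 and DESeq2 (version not given in the sources used here) and the build mm10, per the submitters' processing notes. Groups came from the labels. In each library the value of 1 read was found from the low values, and 100% of the values came to whole reads within 0.02.

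The filter on low values was a mean of 10 or more, met by 13223 genes and missed by 1516. A limma fit to all 4 groups used log2(normalized count + 1), which understates folds of low genes, and had 7 residual and 5.90 prior degrees of freedom. The heterozygous groups were compared with WT, Dhet with both single heterozygotes, and averaged Csf2 copy loss and the interaction were tested, each adjusted by Benjamini-Hochberg at 0.05. Since the values were not raw counts, limma replaced the edgeR test planned for counts. The edgeR quasi-likelihood test and DESeq2 on the recovered reads were alternatives, and edgeR called 100, 458 and 26 genes in Csf1r_het, Csf2het and Dhet against WT. Others were centring each library on its median, pseudocounts of 0.5 and 5, no filter or one at 50, only the groups compared, libraries of 21 months, a replicate block, each library left out and, added after seeing the data, WT replicate 2 and Csf1r_het replicate 2 left out together. The versions were DESeq2 1.42.0, edgeR 4.0.16 and limma 3.58.1 in R 4.3.3. The fit was tested on simulated data.

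The members and lists were chosen with earlier results of these data known. Named by rule were all members, the genes of the GM-CSF receptor family and up to 6 called genes of each pathway list. For each member, the 3 genes of mean at least 50 with the highest Pearson r over the log2 values were also named. Marker lists were summed per library. Gene positions are those of the deposited table. All 10 identifiers matched GENCODE vM21 without regard to version, and 8 of the 10 had the same interval there.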

Additional observations from a re-analysis of the deposited data

Results flagged for a closer look

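These 4 genes differed in how they followed loss of a Csf2 copy on the 2 Csf1r genotypes, by the limma test of the interaction itself. For Socs2 the interaction was -5.19 on the log2 scale (limma adjusted p = 0.0384): the loss of a Csf2 copy went with -3.21 on Csf1r+/- and with 1.98 on Csf1r+/+ mice. For Stat3 it was 2.48 (limma adjusted p = 0.0241), with 0.88 on Csf1r+/- and -1.60 on Csf1r+/+ mice. For Ptpn1 it was 1.92 (limma adjusted p = 0.0318), with 0.17 and -1.74, and for Ptpn6 2.29 (limma adjusted p = 0.0175), with 0.63 and -1.66, in the same order. These interactions were called in 3 (Socs2), 5 (Stat3), 3 (Ptpn1) and 5 (Ptpn6) of the 11 fits that left out a library, and kept their sign in all 11. With a replicate block, none of the 4 passed (limma adjusted p of 0.0624 or more). They did not pass with libraries of 21 months either, but that fit had a lone Csf1r_het and a lone Dhet library. In addition, edgeR did not call Socs2 or Ptpn1 (edgeR adjusted p = 0.0667 and 0.0664), and Ptpn1 was not called with libraries centred on their median (limma adjusted p = 0.0671). All 4 rest on the same 2 Dhet libraries.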

How the results depend on the processing

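The number of genes called by limma moved with the processing, and the cause was not tested. The setting with libraries of 21 months had a lone Csf1r_het and a lone Dhet library. Its counts, here and for the members below, assume that these vary like the other groups. For Csf1r_het against WT, 174 genes became 100 with edgeR, 825 with DESeq2, 0 with only the groups compared in the fit, 0 with libraries of 21 months, 28 with the replicate block and 583 without WT replicate 2 and Csf1r_het replicate 2. It was 0 to 442 with any 1 library left out. For Csf2het, 482 became 1232 with DESeq2, 268 with libraries of 21 months, 256 with the block and 953 without that pair (172 to 675 with 1 left out). For Dhet, 70 became 26 with edgeR, 357 with DESeq2, 0 with only the groups compared and 150 with libraries of 21 months (2 to 174). Dhet against Csf1r_het gave 1, and 2 with edgeR, 115 with DESeq2, 0 and 3 at pseudocounts of 0.5 and 5, 0 with libraries of 21 months, 0 with the block and 8 without the pair (0 to 121). Dhet against Csf2het gave 3, and 183 with DESeq2, 6 at a pseudocount of 5, 13 with only the groups compared, 71 with libraries of 21 months, 0 with the block and 71 without the pair (0 to 85). Averaged Csf2 copy loss gave 95, and 360 with DESeq2, 0 with libraries of 21 months and 56 with the block (19 to 159). The interaction gave 244, and 986, 0 and 14 in those settings and 1340 without the pair (47 to 911).

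Of the 10 members, 0 were called for Csf1r_het against WT, but 1 with DESeq2, 2 without the pair (Socs3 and Bhlhe40) and 0 to 1 with 1 library left out. For Csf2het the 0 became 4 with DESeq2, 1 with a filter at 50 (Jak2), 1 with only the groups compared (Stat5b) and 3 without the pair (Jak2, Socs3 and Bhlhe40). It was 0 to 3 with 1 library left out, and 3 without Csf1r_het replicate 2 (Jak2, Socs3 and Pim1). For Dhet it was 1 with DESeq2, 1 with libraries of 21 months (Stat5b) and 0 to 1 with 1 left out. Both comparisons of Dhet with a single heterozygote gave 1 with DESeq2 and 0 to 1 with 1 left out, and averaged Csf2 copy loss 2 and 0 to 1. The interaction gave 1, but 0 with edgeR, with libraries of 21 months and with the block, 2 without the pair (Socs2 and Socs3) and 0 to 1 with 1 left out.

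Signs turned round for 3 members that were not called. Cish in Csf1r_het was -0.79 to 1.18 with 1 library left out, the lowest without WT replicate 2. In Dhet it was -0.21 with edgeR, -0.19 with DESeq2 and -0.75 without the pair, and -0.75 to 0.98 with 1 left out, the lowest without WT replicate 2. Socs1 in Csf1r_het was 0.22 with libraries of 21 months, 0.23 without the pair and -1.09 to 0.42 with 1 left out, the highest without Csf1r_het replicate 2. Bcl2l1 in Csf1r_het was -0.53 with libraries of 21 months, -1.11 without the pair and -0.57 to 0.60 with 1 left out, the lowest without Csf1r_het replicate 2. In Csf2het it was -0.21 without the pair and -0.21 to 0.80 with 1 left out, the lowest without WT replicate 2.

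No pairing by replicate number was seen. Deviations from group means were correlated over 0.1 in 0 of 15 pairs of same-numbered libraries (-0.214 to 0.0616), against 7 of 30 other pairs. In groups of 2 or 3 libraries these deviations constrain each other, so the check cannot exclude a pairing. With the replicate block the Socs2 interaction was -5.14 (limma adjusted p = 0.102), and those of Stat3, Ptpn1 and Ptpn6 were 2.44, 1.84 and 2.27 (0.0624, 0.102 and 0.0675). The block also ended the calls of Ptpn1 and Ptpn6 in Csf1r_het (0.0593 and 0.0694), of Mcl1 and Bcl6 in Csf2het (0.0692 and 0.0590) and of Ptpn1 and Bcl6 in Dhet (0.108 and 0.0840). What a shared replicate number means is not given by the labels. Precision is limited by 2 or 3 libraries per group, and by reads for Socs1 and Socs2, with 10 and 21 reads in their lowest library.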

Other observations

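By the same rule as for Jak2, the genes most like Socs2 over the 11 libraries were Tmem35a (Pearson r = 0.963), Dusp14 (0.955) and Parva (0.951). Dusp14, a dual-specificity phosphatase gene, had 500.3, 500.8 and 415.9 normalized counts in Csf1r_het, 387.0, 525.2 and 254.8 in Csf2het and 11.3 and 189.7 in Dhet, against 225.4, 35.9 and 180.2 in WT. As for Socs2, its 6 single-heterozygote libraries lay above all Dhet and WT libraries. Parva, which encodes the adhesion protein alpha-parvin, ran from 703.1 to 1353.1 in the single heterozygotes, against 205.0 and 662.4 in Dhet and 232.9 to 677.0 in WT. Tmem35a did not share the full split, with 52.6 in Csf1r_het replicate 3 and 59.7 in WT replicate 3.

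Socs3 was most like Zdhhc7 (r = 0.961), Cd300a (0.956) and Ttyh3 (0.955), Bhlhe40 most like Stk40 (0.963), Plekho2 (0.947) and Nfam1 (0.941), and Stat5b most like Cpsf1 (0.966), Ldlrad3 (0.966) and Stx6 (0.947). Socs1 was most like Cxcl10, an interferon-induced chemokine (0.909), Pim1 most like Fyco1 (0.944), Cish most like Tmem246 (0.976), Stat5a most like Tmem39a (0.920) and Bcl2l1 most like Ankrd16 (0.946). These are the highest values in a search over all genes of that level in 11 libraries and carry no test.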
